A study of Mus musculus with 19 samples.

Results

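The clock-controlled transcription factor genes Dbp, Tef and Hlf and the gene of their antagonist, Nfil3, were examined in reperfused mouse hearts. The genes were chosen by name, and each was taken from the probe sets that the platform annotation assigns to its symbol alone. All 4 were measured, among 22180 genes with a probe set of their own. Dbp, Hlf and Nfil3 each had 1 such probe set (17477979, 17267702 and 17292634), and Tef had a bright one, 17313376, which was used, and a dim one, 17319524.

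Transcripts were read on Affymetrix arrays from 19 mouse hearts, 1 array per heart. Wild-type C57Bl6J hearts came from ZT0, by convention lights on (n = 7), and from ZT12, lights off (n = 7), and Rev-erb alpha knockout hearts came from ZT12 only (n = 5), with neither their strain nor their deleted allele described. Every heart was perfused in isolation by the Langendorff method for 20 min, left without flow for 20 min and reperfused for 20 min, so all values describe hearts after ischemia, and no heart without ischemia and no knockout heart from ZT0 was analysed here. Values are log2 intensities after RMA normalization, on which a difference of 1 is a doubling, and levels are compared between hearts for 1 probe set at a time.

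DBP, TEF and HLF are the PAR-bZIP proteins, a small family of activators named for a region rich in proline and acidic amino acids next to their basic leucine zipper. They bind the D-box, and NFIL3, also called E4BP4, binds the same site as a repressor, so that a D-box gene is driven up or down as the amounts of the activators and of NFIL3 change over the day. Transcription of Dbp is driven by BMAL1 and CLOCK through E-boxes. Nfil3, in contrast, is repressed by the REV-ERB proteins through a RORE, the element in which the nuclear receptor half-site lies. Nfil3 is thus a target of the protein whose gene is labelled as knocked out. In tissues such as liver, kidney and brain the PAR-bZIP proteins act on genes of drug metabolism and of vitamin B6 handling.

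The promoter windows, from 250 bases before to 50 bases after each gene start (RefSeq, GRCm38.p6), were searched for these elements. The letters searched were CACGTG for the E-box, AGGTCA for the half-site, and TTATGTAA and TTACGTAA for the D-box, on both strands. No matches overlapped in the windows shown. Tef and Nfil3 are shown because they are the members that hold a match. Per3, a clock gene with D-boxes, is also shown. It alone among the 8 measured clock genes with a known D-box held a match for the D-box letters. The windows of the other 7 held no D-box match. Capitals mark the matches, and each sequence reads 5′ to 3′ on the strand of its gene, for the upstream Tef window at chr15:81802423-81802722 (plus strand), the downstream Tef window at chr15:81811164-81811463 (plus strand), Nfil3 at chr13:52980990-52981289 (minus strand) and Per3 at chr4:151044616-151044915 (minus strand).
Tef, upstream start: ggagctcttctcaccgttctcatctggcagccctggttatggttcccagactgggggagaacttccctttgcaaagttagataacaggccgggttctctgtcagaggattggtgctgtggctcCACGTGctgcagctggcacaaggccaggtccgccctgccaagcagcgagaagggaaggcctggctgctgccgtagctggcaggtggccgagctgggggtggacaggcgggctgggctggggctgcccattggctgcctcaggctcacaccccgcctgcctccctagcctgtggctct
Tef, downstream start: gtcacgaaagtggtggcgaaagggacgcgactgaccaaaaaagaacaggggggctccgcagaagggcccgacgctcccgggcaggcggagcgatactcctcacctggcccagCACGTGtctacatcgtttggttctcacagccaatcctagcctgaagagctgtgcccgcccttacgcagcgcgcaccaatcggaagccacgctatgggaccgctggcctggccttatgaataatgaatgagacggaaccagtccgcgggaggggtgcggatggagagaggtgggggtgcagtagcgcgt
Nfil3: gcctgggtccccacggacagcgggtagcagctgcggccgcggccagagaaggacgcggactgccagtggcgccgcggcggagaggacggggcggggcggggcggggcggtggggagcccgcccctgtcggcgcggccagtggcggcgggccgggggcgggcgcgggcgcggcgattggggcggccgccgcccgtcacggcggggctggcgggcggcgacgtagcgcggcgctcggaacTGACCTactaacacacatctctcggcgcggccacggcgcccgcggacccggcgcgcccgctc
Per3: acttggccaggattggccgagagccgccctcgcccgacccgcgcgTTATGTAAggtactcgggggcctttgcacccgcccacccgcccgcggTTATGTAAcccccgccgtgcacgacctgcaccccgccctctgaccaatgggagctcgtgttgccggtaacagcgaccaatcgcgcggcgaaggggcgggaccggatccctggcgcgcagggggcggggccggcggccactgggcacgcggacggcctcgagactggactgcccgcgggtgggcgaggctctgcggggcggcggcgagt
Each Tef start had 1 E-box, beginning 127 and 138 bases before it. CACGTG was found in 7.15% of all 32851 promoter windows of the same length. The Nfil3 window held 1 half-site, on the opposite strand 12 bases before the start, and 16.3% of all windows held one. Per3 had 2 copies of TTATGTAA, beginning 205 and 158 bases before its start, a motif present in 0.938% of windows, and TTACGTAA was present in 0.119%. The single windows of Dbp and Hlf held none of these letters. Among the other clock genes searched, CACGTG lay in windows of Per1, Cry1 and Ciart, and AGGTCA in windows of Per1, Nr1d2, Arntl and Clock. A match is a stretch of letters and was not tested for binding.

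The arrays were alike, with correlations of 0.972 to 0.985 between them, and the cardiomyocyte markers had list means of 11.2 in each group. The list mean of the 11 atrial markers varied between hearts. It ran from 7.20 to 8.31 at ZT0, 5.58 to 8.14 in wild type at ZT12 and 5.44 to 8.15 in the knockout, and 1 wild-type ZT12 heart and 3 knockout hearts were under 6. Of the 11 markers 0 passed between the wild-type times or between genotypes at ZT12, and 1, Gpr22, was higher in the knockout than at ZT0 (0.45, adjusted p = 0.046). At an unadjusted p under 0.05 there were 2 of 11 between the wild-type times, 0 between genotypes at ZT12, and 9 for knockout against ZT0, 8 of them lower in the knockout, against 11.5%, 10.6% and 12.6% of all genes (limma). Between the wild-type times 1 of 7 endothelial markers was called lower and 1 of 14 immediate early genes higher, against 1.13% of all genes. Against wild type at ZT12, 1 of 6 adipocyte markers was higher in the knockout, against 0.73%. Against ZT0, 1 of 6 adipocyte markers was higher and 1 of 5 skeletal muscle markers lower in the knockout, against 1.34%. The 4 atrial-poor arrays were left out as an alternative. Nr1d1, the targeted gene, was at 6.35, 6.40, 6.30, 6.36 and 6.51 in the knockout and from 6.46 to 7.28 (median 6.64) in wild type at ZT12. Of the 5 knockout hearts 4 lay below all of these wild-type hearts, and the difference of -0.35 did not pass (adjusted p = 0.374). Which part of the gene its probe set reads is not known from the labels or files, so the value does not check the genotype, and the hearts are called knockout as labelled.

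The first comparison was of how the 4 genes differ between lights on and lights off in wild-type hearts. The 3 PAR-bZIP genes rose at ZT12 and Nfil3 fell. All 4 passed at an adjusted p under 0.05, as did 1.13% of all genes, 0.645% being higher and 0.482% lower. In each of the 4 genes the wild-type groups did not overlap, as was the case for 0.902% of all genes, 0.528% with the higher values at ZT12 and 0.374% with the lower. P-values are two-sided, from limma with Benjamini-Hochberg adjustment over all 22180 genes. The members were picked with earlier results of these data known, so their number among the called genes is a description.

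Dbp, the most strongly rhythmic of the family in most tissues, ran from 5.16 to 6.01 at ZT0, with a median of 5.54. At ZT12 it ran from 7.91 to 8.22, with a median of 8.12. The lowest ZT12 heart stood 1.91 log2 units above the highest ZT0 heart. The rise was 2.52 (SE 0.11; 95% confidence interval 2.30 to 2.75), or 5.75-fold, with an adjusted p of 1.96e-12, and ranked 2 by p (after Arntl) and 3 by size among all genes. The hearts of ZT12 were also closer to each other, with an SD of 0.10 against 0.29 at ZT0 (n = 7 each).

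Hlf, known in humans from a leukaemia fusion gene, ran from 4.96 to 5.58 at ZT0 with a median of 5.23. At ZT12 it ran from 5.90 to 6.37 with a median of 6.001. A gap of 0.33 separated the groups, and the rise was 0.76, or 1.70-fold (95% confidence interval 0.58 to 0.95; adjusted p = 3.53e-05). Tef ran from 4.48 to 4.96 at ZT0 (median 4.83) and from 5.28 to 5.78 at ZT12 (median 5.47). Its groups were 0.31 apart, and it rose by 0.72, or 1.65-fold (95% confidence interval 0.54 to 0.91; adjusted p = 5.9e-05). The intervals of Tef and Hlf overlapped each other and lay below that of Dbp. The changes of different probe sets were not tested against each other.

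The dim probe set of Tef did not follow the bright one. It was at 2.62 ± 0.19 at ZT0, 2.44 ± 0.18 at ZT12 (SD, n = 7 each) and 2.23 ± 0.13 in the knockout (SD, n = 5), below the lowest array median of 3.25. Its difference between the times was -0.18 (adjusted p = 0.461). With both probe sets averaged the rise of Tef was 0.27 and did not pass (adjusted p = 0.0788).

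Nfil3 went the other way. It ran from 5.93 to 6.72 at ZT0 (median 6.29) and from 5.23 to 5.82 at ZT12 (median 5.59). All 7 hearts of ZT12 lay below every heart of ZT0, but by 0.10 only, less than the SDs of 0.23 and 0.20 within the groups. It fell by 0.72 on the log2 scale, or 1.64-fold (95% confidence interval -0.94 to -0.49; adjusted p = 0.000499). The transcript of the repressor was lower and those of the 3 activators were higher at ZT12 in the same hearts. In whole-heart RNA, fewer cells of a type and less RNA per cell cannot be told apart. Of the 4 atrial-poor arrays 1 was a wild-type ZT12 heart, and the 3 knockout hearts enter this comparison only through the shared spread. Without the 4 arrays the rises were 2.52 for Dbp, 0.76 for Tef and 0.75 for Hlf, and Nfil3 fell by 0.72, each passing. After subtraction of group means Tef had r = 0.541 with the atrial list over the 19 hearts, and with that list as a covariate it rose by 0.79. Of the 44 such values of the 4 members with 11 marker lists, the next in size were Hlf with the macrophage list (r = -0.487) and Nfil3 with the immediate early list (r = 0.423).

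**Figure D1:**
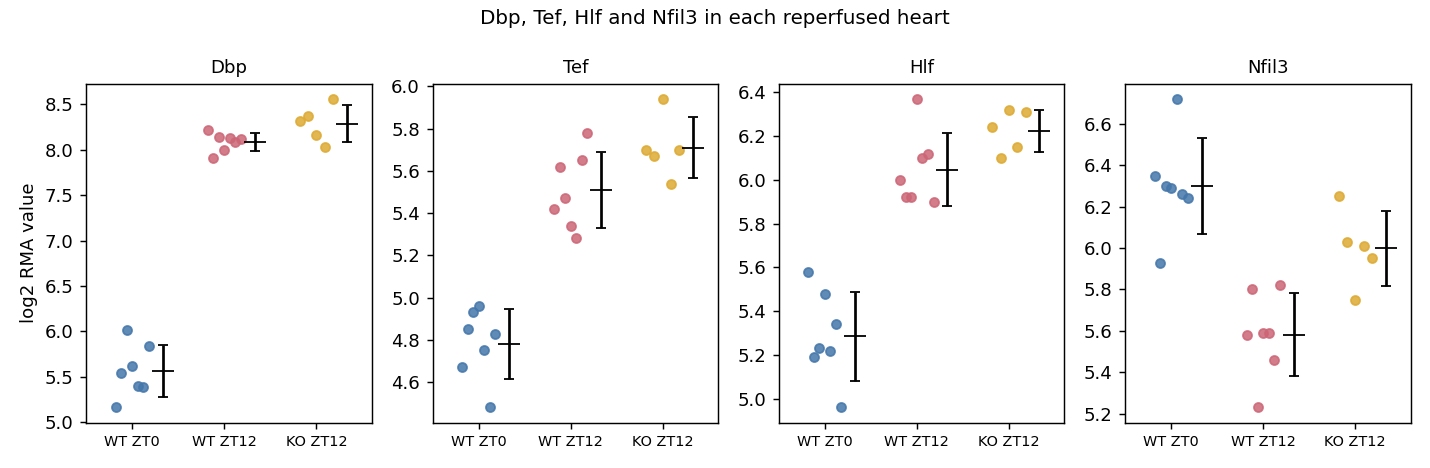
Log2 RMA value (vertical axis, a separate scale in each panel) of Dbp, Tef, Hlf and Nfil3 in the hearts of 3 groups (horizontal axis). Each point is a heart, and the bar beside each group is its mean ± SD; the wild-type groups are apart in all 4 panels, and the knockout hearts lie beside or above the wild-type ZT12 hearts for the PAR-bZIP genes and between the wild-type means for Nfil3.

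The second comparison was of knockout with wild-type hearts at ZT12. In it 0 of the 4 genes passed, against 0.73% of all genes (0.442% higher and 0.289% lower), and at an unadjusted p under 0.05 there were 2, Tef and Nfil3, against 10.6% of all genes (limma). For 0 of the 4 were the groups apart, against 1.4% of all genes, 0.969% with the higher values in the knockout and 0.428% with the lower. Nfil3 came nearest. Its knockout hearts were at 6.25, 6.03, 5.75, 6.01 and 5.95, with a mean of 5.996 ± 0.18 (SD, n = 5) against 5.58 ± 0.20 in wild type (SD, n = 7). Of the 5 knockout hearts, 4 lay above every wild-type ZT12 heart and 1 lay within their range. The difference was 0.42 (SE 0.12; 95% confidence interval 0.17 to 0.66; unadjusted p = 0.00182; adjusted p = 0.119), which ranked 341 by p among the genes. A rise of Nfil3 in the knockout is known from other tissues, and here the difference did not pass. Without the atrial-poor arrays it was 0.42 (adjusted p = 0.54, with 2 knockout hearts left). The immediate early list, a sign of stress in the isolated heart, was also fitted as a covariate, with which the difference of Nfil3 was 0.45 (adjusted p = 0.067).

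The PAR-bZIP genes were near or above their wild-type ZT12 levels. Dbp was at 8.32, 8.37, 8.16, 8.03 and 8.56 in the knockout hearts, 3 of them above every wild-type ZT12 heart and 2 within the range. The difference of 0.20 had a 95% confidence interval of -0.05 to 0.45 (adjusted p = 0.582). Tef was at 5.70, 5.67, 5.94, 5.54 and 5.70, with 1 heart above the wild-type ZT12 range and 4 inside it, a difference of 0.21 (95% confidence interval 0.0015 to 0.41; adjusted p = 0.47). Its dim probe set differed by -0.20 (adjusted p = 0.483), and with both averaged the difference was 0.0012 (adjusted p = 0.998). Hlf was at 6.24, 6.10, 6.32, 6.15 and 6.31, all inside the wild-type ZT12 range. Its difference was 0.18 (95% confidence interval -0.03 to 0.38; adjusted p = 0.556). The intervals reach to 0.45, 0.41 and 0.38, and do not show that these genes were equal in both genotypes.

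In the last comparison, of knockout hearts at ZT12 with wild-type hearts at ZT0, the PAR-bZIP genes were higher in the knockout and Nfil3 did not pass. Time and genotype both differ between these groups, so their parts in a difference cannot be told apart. Atrial-poor hearts also stood on 1 side only, 3 in the knockout and 0 at ZT0. Of all genes 1.34% passed here, 0.965% higher and 0.379% lower. Dbp was higher by 2.73, or 6.61-fold (adjusted p = 5.27e-12), and ranked first by p. Hlf was higher by 0.94, or 1.92-fold, and Tef by 0.93, or 1.90-fold (adjusted p = 8.43e-06 for each). All 5 knockout hearts lay above all 7 ZT0 hearts for these 3 genes, as was the case for 1.19% of all genes, and 0.532% were apart the other way (1.72% in all). The dim probe set of Tef went the other way, by -0.38, and did not pass (adjusted p = 0.0584, limma). Averaging both probe sets of Tef gave 0.27 and an adjusted p of 0.105. Nfil3 was lower than at ZT0 by a log2 difference of -0.30 (95% confidence interval -0.54 to -0.06; adjusted p = 0.262), with 4 of 5 knockout hearts inside the ZT0 range and 1 below it. All 5 lay between the means of the wild-type groups. This comparison shares its hearts with the comparisons above, so the values only stand side by side.

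**Figure D2:**
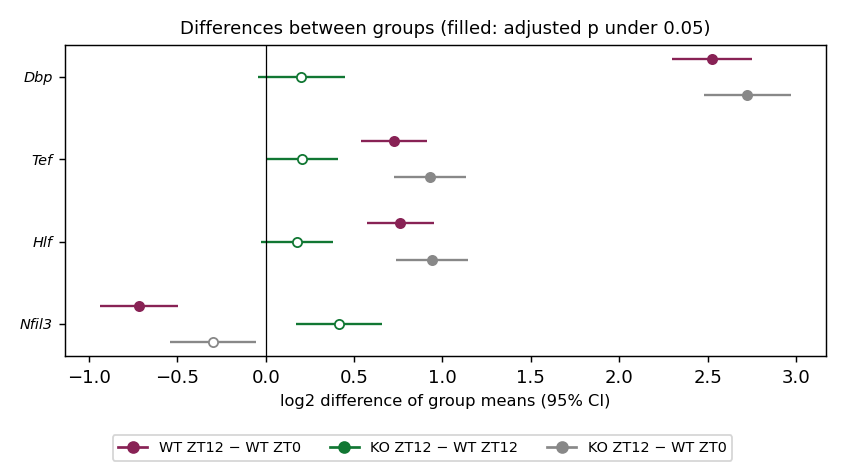
Log2 difference of group means (horizontal axis) for each of the 4 genes (vertical axis) in the 3 comparisons, given by colour, with 95% confidence intervals from limma. Filled points passed at an adjusted p under 0.05 and open points did not; all 4 genes are filled between the wild-type groups, and none is filled between knockout and wild type at ZT12.

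The group a heart belonged to accounted for 97.7% of the variance of Dbp, 87.5% of that of Hlf, 87.1% of that of Tef and 72.3% of that of Nfil3, against a median of 12.03% over all genes. Within a group the 4 genes did not move together in a way that passed a test. Over the 7 hearts of each wild-type group, 12 correlations between pairs of members were computed, with Pearson's r from -0.623 to 0.677. The highest was that of Dbp with Tef at ZT0 (r = 0.677, exact permutation p = 0.0806; Spearman's rho = 0.786, exact permutation p = 0.048). After adjustment over the 12 it was at 0.752 for r and 0.576 for rho, and r was 0.604 without the 2 hearts farthest from the median of Dbp. At ZT12 the same pair had r = -0.179 (exact permutation p = 0.687) and rho = -0.25 (exact permutation p = 0.595). The 5 knockout hearts are too few for a correlation.

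Known regulators of the 4 members were followed as a list of 13 clock genes, of which 11 were measured. Between the wild-type times 5 rose, 3 fell and 3 did not pass, against 0.645% of all genes higher and 0.482% lower. The median log2 difference was 0.50, against -0.0035 over all genes. The activators fell. Arntl, the gene of BMAL1, was between 7.18 and 7.36 at ZT0 and between 3.72 and 4.31 at ZT12. It fell by 3.18 on the log2 scale (adjusted p = 9.25e-16). Of its partner genes Clock fell by 0.73 (adjusted p = 4.68e-08) and Npas2 fell by 1.45 (adjusted p = 8.23e-07). Repressors of the clock rose, among them Cry2 (0.79) and Bhlhe41 (0.56; adjusted p = 0.000244 and 0.000293). Bhlhe40, at 0.50, did not pass (adjusted p = 0.0536) but did in 8 of 25 other settings (0.00208 to 0.0491). Cry1 at -0.12 and Rora at 0.21 did not pass.

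In the knockout 3 of the 11 genes rose and 8 did not pass, against 0.442% of all genes higher and 0.289% lower. The median difference was 0.20, against -0.0030 over all genes. Arntl was at 6.33, 6.77, 6.64, 6.66 and 6.28 in the knockout hearts, above all wild-type ZT12 hearts and below all ZT0 hearts. The difference from wild type at ZT12 was 2.45 (SE 0.099; adjusted p = 1.24e-12). Clock rose by 0.64 (adjusted p = 4.77e-06) and Npas2 by 0.96 (adjusted p = 0.0017), and without the atrial-poor arrays, with 2 knockout hearts left, Npas2 differed by 0.94 and did not pass (adjusted p = 0.105). With all hearts Dbp differed by 0.20 and did not pass. Against wild type at ZT0, 4 of the 11 were higher in the knockout and 1 was lower, beside 0.965% of all genes higher and 0.379% lower. Cry2 was at 0.99, Bhlhe41 at 0.79 and Arntl at -0.73 (adjusted p = 4.22e-05, 1.36e-05 and 0.000191).

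Clock genes with a known D-box were the next list, genes on which the PAR-bZIP proteins and NFIL3 are known to act within the clock. Of 9 genes 8 were measured, all but Per2. In the windows searched, D-box letters were found in 1 of the 8, Per3, and CACGTG in Per1, Cry1 and Ciart. Whether the D-box drove any of their differences here was not tested. Between the wild-type times 5 rose, 0 fell and 3 did not pass (median 0.79), against 0.645% of all genes higher and 0.482% lower. Per3, whose window is printed above, rose by 1.63 (adjusted p = 1.16e-09), from a range of 3.77 to 4.42 to one of 5.57 to 6.09. Ciart, the gene of a clock repressor, rose by 1.47, Nr1d2, the gene of REV-ERB beta, by 1.32, and Per1 by 0.99. Nr1d1 itself rose by 0.59 (adjusted p = 0.0289), with a difference of 0.49 to 0.67 over 25 other settings. The adjusted p was over the threshold in 10 of them (0.0512 to 0.0709), 8 of which left out a single heart (number 1, 2, 3, 4 or 6 of the ZT0 hearts, and number 1, 6 or 7 of the wild-type ZT12 hearts). Without the atrial-poor arrays Nr1d1 differed by 0.63 (adjusted p = 0.0512), and 4 of the 8 genes rose. Cry1, Rora and Rorb did not pass. Nr1d1, Nr1d2, Per1, Cry1 and Rora stand in both clock lists.

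Between knockout and wild type at ZT12, 0 of the 8 passed, against 0.73% of all genes. At an unadjusted p under 0.05 there were 2, Cry1 at 0.25 and Nr1d1 at -0.35, against 10.6% of all genes (limma). The median was 0.044. Per3 was at 5.78 ± 0.16 in the knockout (SD, n = 5) and 5.80 ± 0.18 in wild type (SD, n = 7). Against ZT0, 4 of the 8 were higher in the knockout and 0 lower (median 0.67), beside 0.965% and 0.379% of all genes. The 4 were Per1, Per3, Nr1d2 and Ciart, higher by 1.11, 1.60, 1.43 and 1.72.

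**Figure D3:**
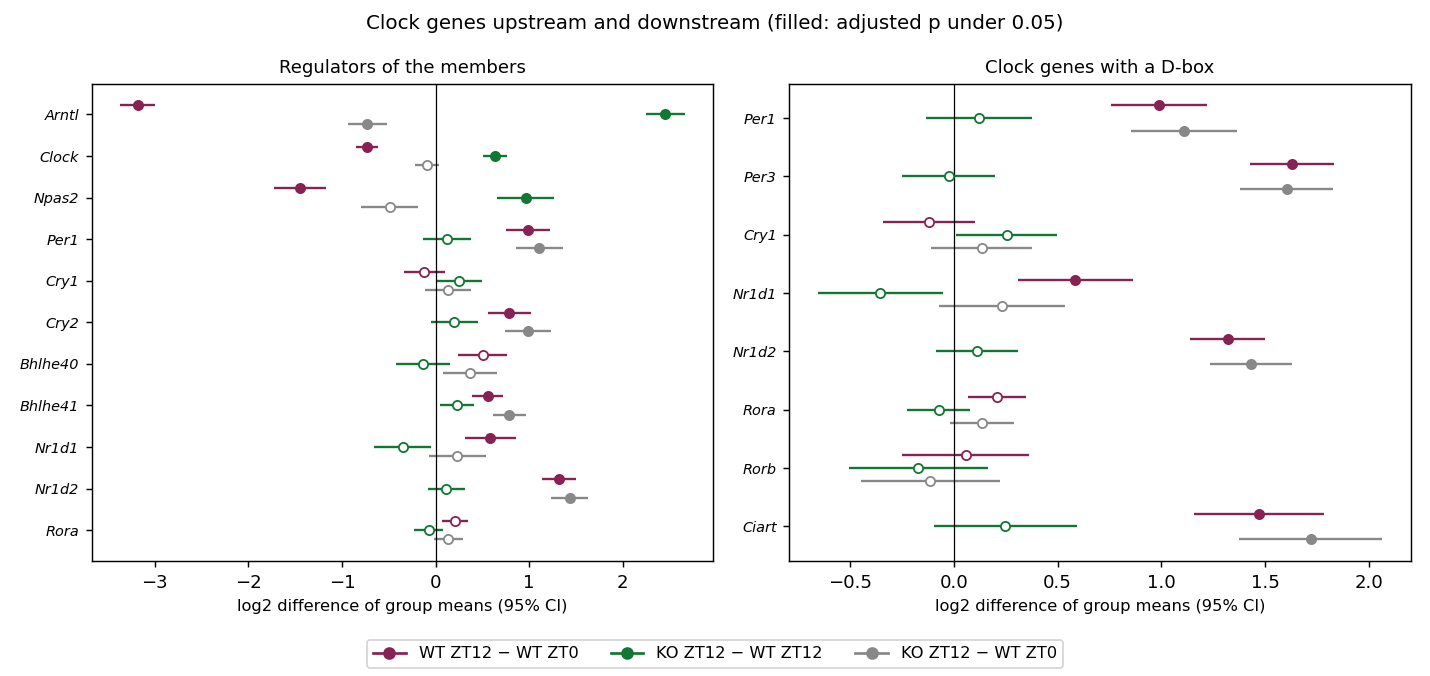
Log2 difference of group means (horizontal axis) with 95% confidence intervals for 11 regulators of the members (left) and 8 clock genes with a D-box (right), in 3 comparisons given by colour. Filled points passed at an adjusted p under 0.05; Arntl, Clock and Npas2 are the genes filled between knockout and wild type at ZT12.

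Genes known as PAR-bZIP targets in liver, kidney, intestine or brain were followed as a list of 14, of which 12 were measured (not Por and Cyp4a10). Between the wild-type times 1 rose and 11 did not pass (median 0.048), against 0.645% of all genes higher and 0.482% lower. The gene that rose was Abcb1a, which encodes a drug efflux pump of blood vessel and gut cells and is known from cultured cells and mouse intestine to be raised by HLF and lowered by NFIL3. It ran from 5.90 to 6.32 at ZT0 (median 6.22) and from 6.44 to 7.05 at ZT12 (median 6.59), a rise of 0.51 (SE 0.096; adjusted p = 0.00681). In the knockout it was at 6.04, 6.28, 6.08, 6.31 and 5.96, below every wild-type ZT12 heart and inside the range of ZT0. It fell by 0.55 from wild type at ZT12 (SE 0.10, adjusted p = 0.0128). There 0 of the other 11 genes passed, and 0.73% of all genes did. Fitting these 12 arrays alone ended the call of Abcb1a (adjusted p = 0.0622), as did dropping the atrial-poor arrays (difference -0.66, adjusted p = 0.1). Against ZT0 the difference of Abcb1a was -0.042 (adjusted p = 0.924), and 0 of 12 genes passed, beside 1.34% of all genes. At an unadjusted p under 0.05 there was 1, Acot2 at 0.42, against 12.6% of all genes (limma).

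Other targets were measured well above the median array value and did not pass, such as Alas1, the first enzyme of heme synthesis (8.95 ± 0.21 at ZT0, 8.83 ± 0.26 at ZT12, n = 7 each, and 8.85 ± 0.27 in the knockout, n = 5, SD), and Pdxk, the vitamin B6 kinase (5.08 ± 0.22, 5.28 ± 0.33 and 5.26 ± 0.10 in the same order). Cyp7a1, Cyp2a5, Cyp2b10, Cyp4a14 and Nr1i3, which are liver genes, had group means between 1.32 and 3.14, below the array medians of 3.25 to 3.32.

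The C/EBP proteins, bZIP relatives that can bind sites like the D-box, served as a list of 6. Between the wild-type times 0 passed, against 1.13% of all genes. At an unadjusted p under 0.05 there was 1, Cebpb, against 11.5% of all genes (limma). Cebpb, a stress and inflammation responsive member, differed by 0.43 (adjusted p = 0.0651). It passed in 7 of 25 other settings (adjusted p 0.0277 to 0.0493), among them those without WT ZT0 replicate 1 or replicate 2. In the knockout it was at 6.41, 6.23, 6.38, 6.23 and 5.93. Against ZT0 it was higher by 0.69 (SE 0.12, adjusted p = 0.00364), the 1 gene of 6 that passed, where 1.34% of all genes did. Against wild type at ZT12 its difference of 0.26 did not pass (adjusted p = 0.463, unadjusted p = 0.0464), nor did the other 5 genes. So 0 of 6 passed, against 0.73% of all genes, and 1 was at an unadjusted p under 0.05, against 10.6% (limma).

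**Figure D4:**
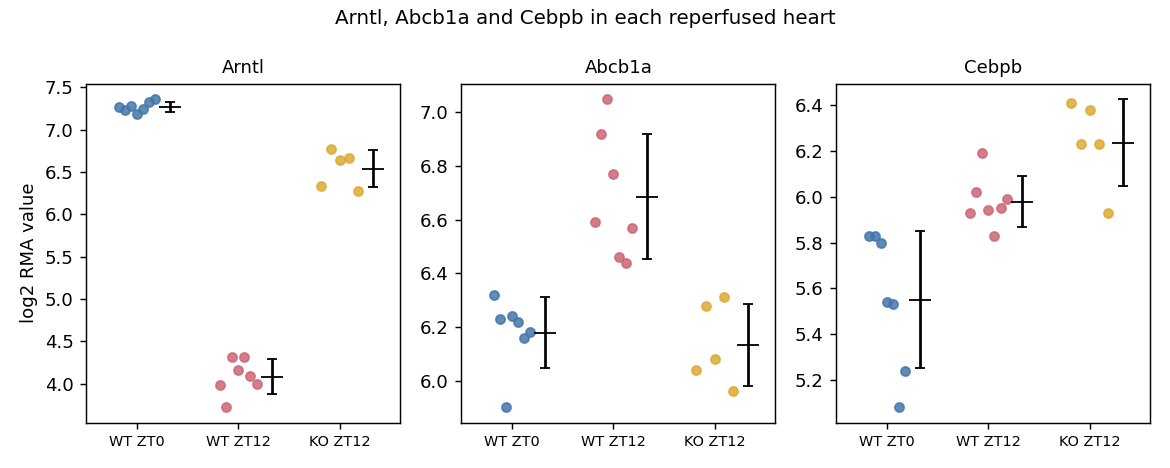
Log2 RMA value (vertical axis, a separate scale in each panel) of Arntl, Abcb1a and Cebpb in the hearts of 3 groups (horizontal axis). Points are hearts and bars are mean ± SD; the knockout hearts lie between the wild-type groups for Arntl, inside the ZT0 range for Abcb1a and above all ZT0 hearts for Cebpb.

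Genes with a pattern most like that of each member were found by Pearson's r over the 19 hearts, which share their 3 group means, so the values describe likeness and carry no test. The nearest to Dbp were Tcap, the gene of a sarcomere protein (r = 0.98), Nr1d2 (0.976), Per3 (0.967), Usp2 (0.963), a deubiquitinase gene, and the transcription factor gene Zbtb16 (0.954). Tcap had a mean of 8.81 at ZT0, and of 9.99 in wild type and 10.3 in knockout at ZT12. Nr1d2, Tcap and Zbtb16 also led for Tef (0.934, 0.928 and 0.925), followed by Serinc3 (0.908) and the globin gene Cygb (0.901). For Hlf the nearest were Zbtb16 (0.913), Timp4 (0.897), a metalloprotease inhibitor gene, Cd200 (0.888), Nr1d2 (0.887) and Per3 (0.886). The chaperone gene Hyou1 was among the 3 lowest for all 3 PAR-bZIP genes (r = -0.919 for Dbp, -0.861 for Tef and -0.852 for Hlf).

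Nfil3 had other neighbours. The nearest were Rcan1, the gene of a calcineurin inhibitor (r = 0.878), Stx6 (0.874), the metalloprotease gene Adam19 (0.844), Arap2 (0.837) and Ypel2 (0.819). Rcan1 was at 8.33 ± 0.22 at ZT0, 7.60 ± 0.29 at ZT12 (SD, n = 7 each) and 8.25 ± 0.25 in the knockout (SD, n = 5). All 5 of these neighbours, picked for their likeness to Nfil3, had their lowest mean in wild type at ZT12, as Nfil3 did. The lowest values were those of Blmh (-0.841), Ppat (-0.828), which encodes an enzyme of purine synthesis, and Pcyox1 (-0.796). Once the mean of each group was subtracted, the closest genes were others. The r was 0.862 for Tpra1 and Dbp, 0.796 for Ppfia2 and Tef, 0.789 for Mrpl23 and Hlf and 0.847 for Hspa2 and Nfil3. Each was the highest among all genes allowed by the naming rule, and was not tested. The group means of Ppfia2, 3.27 to 3.39, lay near the array medians.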

How the data were processed

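The deposited table held log2 values for 41345 probe sets on 19 arrays, made by the authors with RMA per the submitters' processing notes. RMA corrects background, normalizes quantiles across arrays, which ties levels to each array's distribution, and summarises probes. The log2 scale was read from the values (0.208 to 12.88). Biotinylated DNA was made from 300 ng of RNA, per the labels' protocols. RMA's version is not given in the sources used here. The platform annotation gave 23521 probe sets 1 gene, 1814 several and 16010 none, and the last 2 kinds were left out. A gene with several probe sets was represented by that with the highest mean.

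Groups were fitted together with limma 3.58.1 (R 4.3.3), 1 mean per group over 19 arrays, with Benjamini-Hochberg adjustment over 22180 genes and a threshold of 0.05. Correlations used exact permutation tests in SciPy 1.17.1. The fit was tested on simulated data, and promoters came from RefSeq (GRCm38.p6). Replicates are called biological in the labels. The number of arrays limits the precision. The members and lists were chosen with earlier results of these data known. Named genes were the members, the 4 lists and, for each member, the 5 highest, 3 lowest and, after subtracting group means, 3 highest by Pearson's r, of which the first is named here. Alternatives were averaged probe sets, 2 normalizations, a filter on dim probe sets, only the arrays compared, a replicate block, an intensity trend, array weights, 2 covariates and leaving out each array. Leaving out the 4 arrays with an atrial list mean under 6 was added after seeing the data.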

Additional observations from a re-analysis of the deposited data

How the results depend on the processing

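Each of the 12 member differences kept its sign in all settings run, but Tef between knockout and wild type at ZT12 went from 0.21 to 0.0012 with its probe sets averaged. The 7 that passed did so in every setting except with both probe sets of Tef averaged, where the rise between the wild-type times was 0.27 (adjusted p = 0.0788) and that of knockout over wild type at ZT0 0.27 (0.105), since the dim probe set moved the other way. The 5 that did not pass never passed, Nfil3 in knockout against wild type at ZT12 coming closest with an intensity trend (adjusted p = 0.0584). Without 1 array at a time the differences between the wild-type times ran from 2.46 to 2.599 for Dbp, 0.67 to 0.76 for Tef, 0.71 to 0.81 for Hlf and -0.78 to -0.65 for Nfil3. The replicate block left every member's call as it was, with Nfil3 between knockout and wild type at 0.42 (adjusted p = 0.192); it changed the call of 1 list gene, Cebpb between the wild-type times (0.43, adjusted p = 0.0377). With that block, dim probe sets left out, an intensity trend or either covariate, 1 C/EBP gene passed between the wild-type times, and without 1 array at a time 0 to 1 did, against 0. With only the arrays compared, or without the atrial-poor arrays, 0 target genes passed between knockout and wild type at ZT12, against 1; the first setting fits fewer samples, and the second leaves 2 knockout hearts. The near-zero difference of Abcb1a from ZT0 ran from -0.0886 to 0.000954 without 1 array at a time, its sign turning without KO ZT12 replicate 5. The cause of these shifts was not tested further. Over all settings the count of genes called ran from 171 to 380 between the wild-type times (250 in the values given), 19 to 270 between knockout and wild type at ZT12 (162) and 84 to 467 between knockout and ZT0 (298). The counts of 380 and 467 came with dim probe sets left out, where 13393 genes were tested rather than 22180. The low ends of the last 2 came without the atrial-poor arrays, the high ends with an intensity trend and with dim probe sets left out. With the replicate block the counts were 171, 88 and 182. Hearts of equal number had correlations of their deviations of -0.0717 to 0.0739 over 17 pairs. Hearts of unequal number were not compared, so these values cannot show whether the numbers pair hearts. Why calls were lost with the block was not tested. Signal near the array median limits what can be read for the dim probe sets.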
